A study of Mus musculus with 6 samples.

Results

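The histone deacetylases described here are the 10 genes Hdac1, Hdac2, Hdac3, Hdac8, Hdac4, Hdac5, Hdac7, Hdac9, Hdac6 and Hdac11, found by symbol among the 55401 genes of the deposited count table. They were measured in BV2, an immortalised line of mouse microglia, by RNA-seq of poly(A)-selected transcripts in 3 libraries of cells given lipopolysaccharide (LPS, an endotoxin of Gram-negative bacteria) and 3 of cells given vehicle. The labels gave no dose, no time of treatment and no genetic change in either group, and left unstated if the 3 libraries were grown as separate cultures, so every error and p-value reflects only the spread between these libraries. The study looked for regulators of inflammatory activation of microglia. The 10 genes were chosen by name with the LPS and Vehicle values of this table already known, so their differences are given as a description with no p-value.

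Histone deacetylases remove acetyl groups from lysines of histones and of many other proteins, and on chromatin their action generally goes with gene repression. Class I enzymes (Hdac1, Hdac2, Hdac3 and Hdac8) are mostly nuclear, and Hdac1 and Hdac2 are the catalytic subunits of the Sin3, NuRD, CoREST and MiDAC complexes while Hdac3 works in the NCoR complex. Class IIa enzymes (Hdac4, Hdac5, Hdac7 and Hdac9) bind MEF2 transcription factors and leave the nucleus with 14-3-3 proteins once CaM-dependent kinases, protein kinase D or SIK kinases phosphorylate them. Hdac6, of class IIb, is a cytoplasmic deacetylase of tubulin, and Hdac11 is the sole class IV enzyme. In macrophages and microglia, inhibitors of these enzymes alter the inflammatory response to LPS.

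The LPS libraries held 49016002 to 55917868 estimated counts each, and the Vehicle libraries 45969690 to 59023474. The LPS libraries differed more among themselves, with Pearson's r of log2 CPM across genes of 0.951 to 0.962, against 0.967 to 0.970 between Vehicle libraries. On the second principal component, with 19.3% of the variance, LPS 1 stood at 62.8, LPS 2 at -23.3 and LPS 3 at -66.3, while the Vehicle libraries ranged between -0.90 and 16.5, and results that turn on 1 of them are given with and without it. Low values lay at multiples of about 3.78 counts, and 3 such steps (11.3 counts per library, 0.188 to 0.239 CPM) were taken as the floor for a gene listed at 0. The 11 markers of microglia summed to 1410 to 1870 CPM (counts relative to library size, scaled by TMM) with LPS and 2020 to 2220 CPM with Vehicle. Cd68 alone, at 808 to 1120 CPM, was the largest part of these sums. Of the 11, 4 were called lower with LPS and 0 higher. P2ry12, Tmem119 and Cx3cr1 stayed at or under 2.64 CPM in all 6 libraries, and Aif1 at or under 4.58 CPM. Summed markers of other brain cells were low, at 1.70 to 5.80 with LPS and 4.73 to 7.95 CPM with Vehicle for astrocytes, 1.74 to 10.6 and 4.60 to 9.82 CPM for neurons, 1.12 to 6.52 and 4.71 to 6.51 CPM for oligodendrocytes, and 0.160 to 0.780 and 0.149 to 0.534 CPM for fibroblasts. Lum, a fibroblast marker, was at 0 in all 6 libraries, and the part of these markers in the differences below was not tested. In such bulk libraries, fewer cells of a type and less RNA per cell cannot be told apart.

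Hdac9 and Hdac2 were lower in LPS than in Vehicle libraries, and none of the other deacetylases was called changed. A gene was called when its adjusted p was under 0.05 (edgeR's quasi-likelihood test, Benjamini-Hochberg over the 16371 tested genes). Of the 10 deacetylases 9 passed the filter on low counts, and of these 2 were called lower and 0 higher (3 lower and 0 higher with DESeq2 and with limma voom, which added Hdac1). Over all tested genes 23.6% were called, 10.9% lower and 12.7% higher, and nothing is read from the count of members against these shares because the genes were chosen with this contrast known. The LPS and Vehicle libraries did not overlap for 5 of the 9 (LPS below for Hdac1, Hdac2 and Hdac9, LPS above for Hdac6 and Hdac7), where 40.8% of all tested genes did not overlap. They overlapped for the other 4, Hdac3, Hdac8, Hdac4 and Hdac5.

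**Figure D1:**
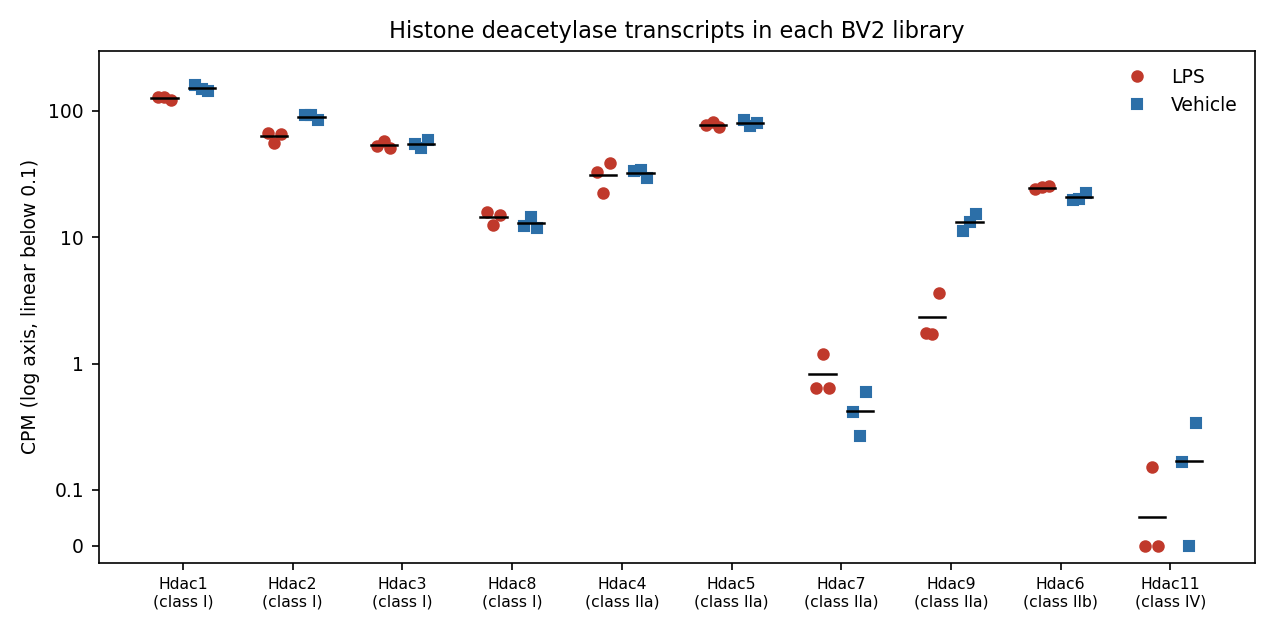
Level of each deacetylase transcript in CPM on a log axis (linear below 0.1 CPM), with 1 point per library (circles LPS, squares Vehicle) and a bar at the mean of each group (n = 3). Hdac9 is the gene whose LPS points (1.72 to 3.59 CPM) stand farthest below its Vehicle points (11.3 to 15.4 CPM), and Hdac11 lies at 0 in 2 LPS libraries and 1 Vehicle library.

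Hdac9 (ENSMUSG00000004698), a class IIa enzyme that represses MEF2 target genes, had the largest difference of the family. It stood at 1.74, 1.72 and 3.59 CPM in LPS libraries 1 to 3, against 11.3, 13.2 and 15.4 CPM in Vehicle libraries 1 to 3. Every LPS library lay below every Vehicle library, and LPS 3 was the highest of the LPS libraries. The deposited counts behind these levels were 87, 91 and 175 with LPS and 684, 644 and 727 with Vehicle. The fitted level was 5.66-fold lower with LPS, a log2 fold change of -2.50 ± 0.28 (SE, n = 3 per group). Every SE of a log2 fold change was derived from the quasi-likelihood test, as the size of the change over the square root of its F statistic. Hdac9 was called with any 1 library left out, with log2 fold changes between -2.93 (without LPS 3) and -2.31 (without LPS 2). The spread within LPS was wide for this gene, with a coefficient of variation of 45.6% against 15.2% with Vehicle.

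Promoter sequences of the 2 called genes are shown because the genes differ in how many CG dinucleotides surround their starts. They are taken from RefSeq for mouse build GRCm38.p6, read 5′ to 3′ on the gene's strand, from 250 bases before to 50 bases after the start, with every CG in capitals. For Hdac9 on chromosome 12, minus strand, the table holds one promoter at chr12:34917046-34917345 with 0 CG and another at chr12:34528840-34529139 with 3 CG. For Hdac2 on chromosome 10, plus strand, it holds chr10:36974294-36974593 with 36 CG.
Hdac9, upstream promoter: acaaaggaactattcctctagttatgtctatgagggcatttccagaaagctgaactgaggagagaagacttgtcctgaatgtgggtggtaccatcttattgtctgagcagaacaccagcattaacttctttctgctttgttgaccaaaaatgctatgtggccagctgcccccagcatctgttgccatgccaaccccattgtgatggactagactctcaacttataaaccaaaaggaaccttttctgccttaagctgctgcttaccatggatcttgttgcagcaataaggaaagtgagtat
Hdac9, downstream promoter: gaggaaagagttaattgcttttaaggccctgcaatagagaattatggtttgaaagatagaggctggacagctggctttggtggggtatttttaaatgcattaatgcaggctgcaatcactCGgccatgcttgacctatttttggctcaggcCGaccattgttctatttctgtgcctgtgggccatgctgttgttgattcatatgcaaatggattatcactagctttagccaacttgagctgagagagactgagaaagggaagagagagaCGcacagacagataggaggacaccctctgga
Hdac2 promoter: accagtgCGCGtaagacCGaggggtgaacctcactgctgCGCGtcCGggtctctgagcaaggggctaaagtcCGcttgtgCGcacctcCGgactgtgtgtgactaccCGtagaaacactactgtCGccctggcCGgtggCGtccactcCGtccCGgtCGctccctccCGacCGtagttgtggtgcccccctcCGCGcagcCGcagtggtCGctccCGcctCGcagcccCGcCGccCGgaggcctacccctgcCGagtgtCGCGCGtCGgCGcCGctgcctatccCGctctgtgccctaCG

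Over all 32851 promoters of that table the median was 7 CG (quartiles 3 and 20), 5.43% held 0 CG and 31.4% held at most 3. The table matched 8 of the 10 deacetylases with 12 promoters, and the 10 promoters outside Hdac9 held 5 to 36 CG. Sites were exact matches on either strand to YTAWWWWTAR for MEF2 and GGGRNWYYCC for NF-kB (Y is C or T, W is A or T, R is A or G, N is any base). Sequences with a mismatch were not counted, so a promoter without a match may hold a similar sequence. The MEF2 pattern occurred in 1 of the 12 promoters (that of Hdac5) and in 3.19% of all promoters in the table. The NF-kB pattern occurred in 0 of the 12 and in 4.51% of all. These matches describe letters in a window, and gene-level counts do not tell which Hdac9 start was used.

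Class I transcripts differed by less. Hdac2 (ENSMUSG00000019777), a nuclear enzyme of the Sin3, NuRD and CoREST complexes, stood at 66.5, 56.3 and 65.7 CPM with LPS, against 92.7, 93.2 and 85.0 CPM with Vehicle. All LPS libraries lay below all Vehicle libraries, with LPS 2 the lowest. The means were 62.8 ± 5.65 and 90.3 ± 4.63 CPM (SD, n = 3), and the fitted level was 1.44-fold lower with LPS (log2 fold change -0.52 ± 0.10). Leaving out each library in turn gave -0.58 to -0.45, and the gene was called each time.

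Hdac1 (ENSMUSG00000028800), the close relative that shares those complexes with Hdac2, stood at 129, 128 and 123 CPM with LPS, against 161, 149 and 145 CPM with Vehicle. The groups did not overlap, yet the difference of -0.26 ± 0.08 on the log2 scale was not called. It was called under 7 of 10 other scalings, filters and tests, with log2 fold changes of -0.35 to -0.26, and under 0 of 6 omissions of a library. A processed pseudogene, Gm10093, matches the Hdac1 transcript at 99.4% over 1444 of 2038 bases, so reads may be divided between them. Gm10093 was listed at 8.59, 9.93 and 8.99 CPM with LPS and at 11.5, 11.3 and 9.61 CPM with Vehicle, well under Hdac1 in each library.

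Hdac3 (ENSMUSG00000024454), the catalytic subunit of the NCoR complex, stood at 52.8, 57.5 and 50.8 CPM with LPS, against 54.4, 50.5 and 58.5 CPM with Vehicle. The groups overlapped, and the log2 fold change was -0.02 ± 0.10. Its sign turned without LPS 3 (0.01) and without Vehicle 3 (0.03). Hdac8 (ENSMUSG00000067567), which deacetylates cohesin, had 15.9, 12.6 and 15.0 CPM with LPS and 12.2, 14.5 and 11.9 CPM with Vehicle, again overlapping (0.17 ± 0.16).

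None of the other class II transcripts was called, and none differed from Vehicle as far as Hdac9 did. Hdac4 (ENSMUSG00000026313) had 33.0, 22.6 and 38.6 CPM with LPS, against 33.6, 33.8 and 29.6 CPM with Vehicle. LPS 2 was the lowest and LPS 3 the highest of the 6 libraries, so the Vehicle range lay inside the LPS range, and the log2 fold change of -0.05 ± 0.19 became 0.15 without LPS 2. Hdac5 (ENSMUSG00000008855), the most abundant class IIa transcript, had 76.9, 81.1 and 75.0 CPM with LPS and 85.4, 75.6 and 80.3 CPM with Vehicle, and the groups overlapped (-0.05 ± 0.09).

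Hdac7 (ENSMUSG00000022475), known for roles in lymphocytes and blood vessels, was close to the floor. It was listed at 0.641, 1.19 and 0.636 CPM with LPS, against 0.413, 0.267 and 0.591 CPM with Vehicle, from 32, 63 and 31 counts and from 25, 13 and 28 counts. The LPS libraries lay above the Vehicle libraries with a narrow gap, and the log2 fold change of 0.97 ± 0.52 was not called and fell to 0.60 without LPS 2. Slc48a1, a heme transporter gene on the opposite strand, overlaps Hdac7, and it was higher with LPS too, at 87.6, 98.0 and 92.0 CPM against 58.5, 58.6 and 68.7 CPM with Vehicle. Nothing in the labels says that the libraries kept strand information, so reads of the overlapping stretch cannot be told apart.

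Hdac6 (ENSMUSG00000031161), the tubulin deacetylase, was the sole well-detected deacetylase with all LPS libraries above all Vehicle libraries. It stood at 24.0, 24.9 and 25.4 CPM with LPS, against 19.9, 20.2 and 22.3 CPM with Vehicle, and the log2 fold change of 0.25 ± 0.12 was not called. Hdac11 (ENSMUSG00000034245), of class IV, was listed at 0, 0.152 and 0 CPM with LPS and at 0.165, 0 and 0.338 CPM with Vehicle. Only Vehicle 3, with 16 counts, exceeded the floor of 11.3 counts, so no fold change is given and a class IV response was not measurable at this depth. Hdac10, the class IIb family gene outside the 10, had 13.4, 11.6 and 12.7 CPM with LPS and 18.0, 17.8 and 13.9 CPM with Vehicle. Its LPS libraries lay below its Vehicle libraries, and the log2 fold change of -0.40 ± 0.16 was not called.

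**Figure D2:**
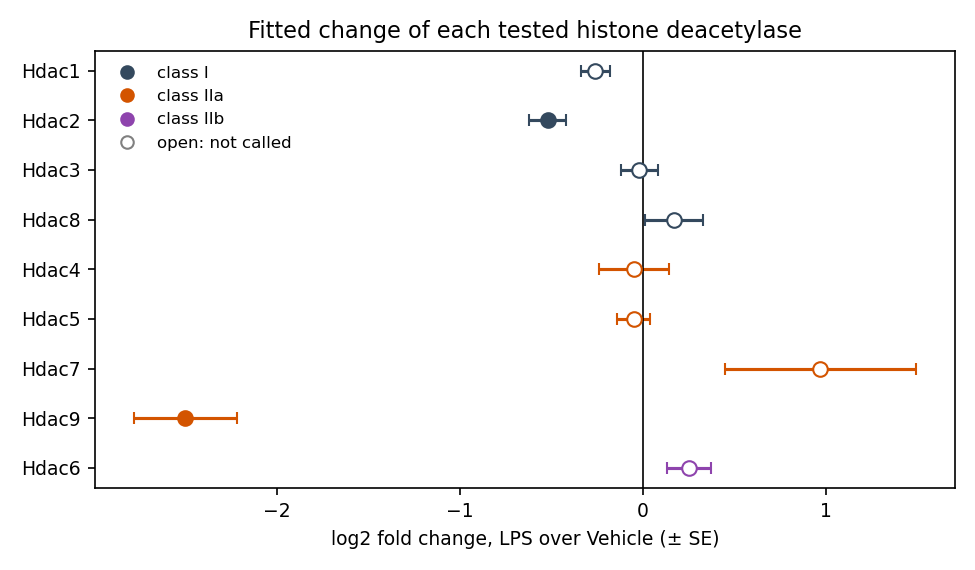
Fitted log2 fold change, LPS over Vehicle, with the SE derived from the test for the 9 tested deacetylases, grouped by class (colour), with filled points for called genes. Hdac9 (-2.50) and Hdac2 (-0.52) are the filled points, and the error bar of Hdac7 (0.52) is the widest.

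By class, and without Hdac10, 1 of 4 class I genes (Hdac2) and 1 of 5 class II genes (Hdac9) were called, both lower. The median fitted log2 fold change was -0.14 for class I and -0.05 for class II, beside -0.02 for all genes tested. The range was wider in class II, from -2.50 to 0.97, than in class I, from -0.52 to 0.17. Without LPS 2 the class II median was 0.15, the value that Hdac4 then took. When libraries were scaled by total counts alone, the median of all genes was -0.10 and that of the 9 deacetylases -0.13, so the small negative values of Hdac3, Hdac4 and Hdac5 were of the size of that shift.

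Levels of different genes were compared as CPM per kb of the longest annotated transcript. Gene-level counts do not tell which transcripts were used, and a gene that used shorter ones would be understated. On that scale Hdac1 led with a level of 62.2 ± 1.66 with LPS and 74.4 ± 4.07 with Vehicle (SD, n = 3), above 92.4% and 94.0% of the 16351 tested genes with a known length. Hdac2 followed at 19.3 ± 1.74 with LPS and 27.8 ± 1.42 with Vehicle. Hdac3 (15.0 and 15.2 per kb, LPS and Vehicle) and Hdac5 (14.4 and 14.9 per kb) came next, and the libraries of these neighbours overlapped in both groups. Hdac8 had 6.39 with LPS and 5.67 with Vehicle, Hdac6 4.91 and 4.13, and Hdac4 3.88 and 3.99, where Hdac6 and Hdac4 overlapped in both groups. Hdac9 stood at 0.296 ± 0.135 with LPS and 1.67 ± 0.255 with Vehicle, and among tested genes it lay above 13.9% with LPS and above 31.7% with Vehicle. Hdac7 (0.159 and 0.0818 per kb) and Hdac11 (0.0191 and 0.0633 per kb) were the lowest, and with LPS the Hdac9 libraries overlapped those of Hdac7 while with Vehicle they stood clear of them.

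Summed per kb over the 10 genes, without Hdac10, the level was 129, 125 and 126 with LPS, against 153, 146 and 144 with Vehicle. The sums did not overlap, and the difference in means of -21.4 per kb came mostly from class I (-20.2), with -12.2 for Hdac1 and -8.45 for Hdac2. Hdac9, a minor transcript in both groups, differed by -1.38 per kb, and Hdac6 and Hdac8 differed by 0.783 and 0.720 per kb in the other direction. The class I share of the sum was 81.9%, 81.4% and 80.7% with LPS and 83.4%, 83.7% and 82.6% with Vehicle. On this scale, which rests on the longest transcripts, class I held most of the sum in every library. The level of class I over class II was 4.51, 4.40 and 4.18 with LPS, against 5.05, 5.12 and 4.76 with Vehicle, and all LPS ratios lay below all Vehicle ratios. Such ratios within a library do not depend on the scaling of libraries, and they show unequal change without saying which side changed. The class II side of these sums and ratios is incomplete, because it leaves out Hdac10 of class IIb. That gene had a mean of 4.33 per kb with LPS and 5.71 per kb with Vehicle, so counting it would narrow the gap between the ratios of the groups.

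Within class IIa the balance between genes differed most. The ratio of Hdac4 to Hdac9 per kb was 18.6, 12.9 and 10.5 with LPS, against 2.91, 2.51 and 1.89 with Vehicle. The ratio of Hdac5 to Hdac9 was 64.8, 69.0 and 30.7 with LPS, against 11.1, 8.40 and 7.68 with Vehicle. Neither ratio overlapped between groups, and LPS 3, where Hdac9 was highest, had the lowest LPS value of both. Both ratios divide by Hdac9, so they restate its difference, given above, and are no further result. The summed class IIa level was 18.6, 18.2 and 19.2 per kb with LPS, against 21.4, 19.9 and 20.6 per kb with Vehicle. Hdac5 and Hdac4 made up most of this level, and the groups did not overlap. Of the difference in means of -1.93 per kb, Hdac9 gave -1.38, Hdac5 -0.518 and Hdac4 -0.115. Hdac7 differed by 0.0771 per kb in the other direction. In class I the ratio of Hdac2 to Hdac1 was 0.323, 0.275 and 0.335 with LPS, below 0.361, 0.392 and 0.368 with Vehicle.

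**Figure D3:**
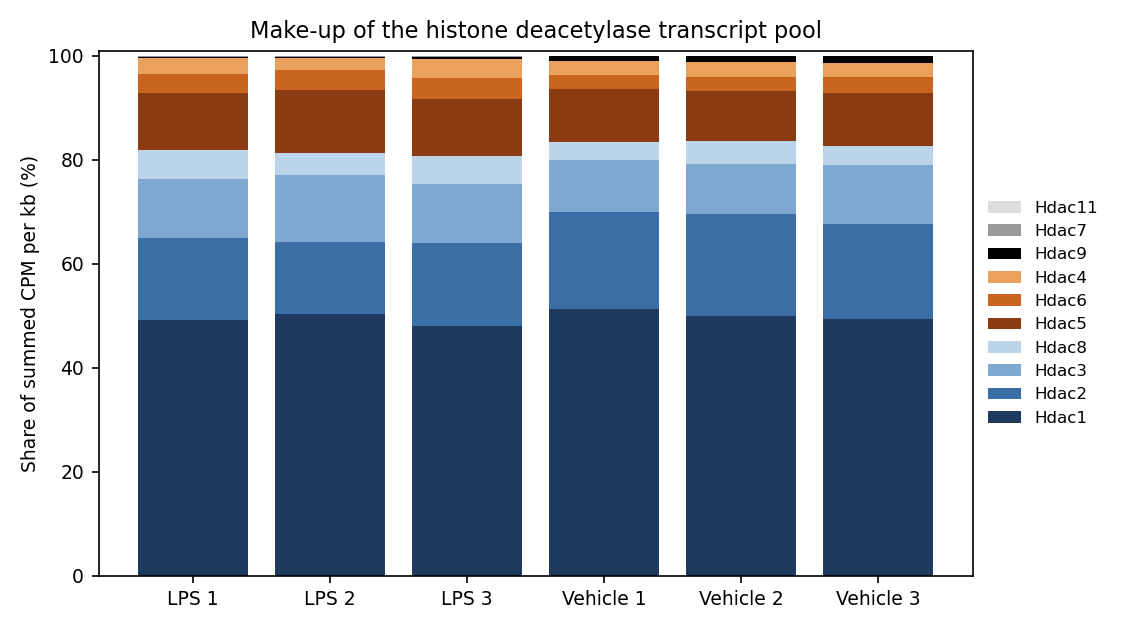
Share of each deacetylase (stacked, in % of the summed CPM per kb of the 10 genes, without Hdac10) in each library, LPS left and Vehicle right, with class I in blue and class II in brown, black and grey. Hdac1 averages 49.2% with LPS and 50.3% with Vehicle, Hdac2 15.3% and 18.8%, and the black band of Hdac9 0.235% and 1.14%.

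The genes whose pattern over the 6 libraries lay closest to Hdac9 were Foxm1, Abca9, Ttc39a, Zfp101 and Dmpk. Likeness was the Euclidean distance between log2 CPM values centred on their mean, over 9829 genes with a mean of at least 5 CPM, whose median distance was 3.32. Foxm1, a transcription factor of dividing cells, was nearest (distance 0.697), with 14.7, 16.5 and 30.6 CPM with LPS, against 77.1, 70.7 and 94.2 CPM with Vehicle. As for Hdac9, its groups did not overlap and LPS 3 was the highest LPS library. Foxm1 was picked for closeness over these same values, so these shared features are no further likeness. Abca9, an ABC transporter gene, lay at 0.723, Ttc39a at 0.756, the zinc finger gene Zfp101 at 0.794 and the kinase gene Dmpk at 0.854. The 6 libraries fall into 2 groups, and the genes share with Hdac9 the side on which LPS lay.

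Partners of the enzymes were taken from 12 lists of 107 genes, of which 102 were tested. Of these, 11 were called higher and 14 lower with LPS, or 24.5%, beside 23.6% of all tested genes. Leaving out 1 library gave 11 to 30 called partners (12 without LPS 2, 16 without LPS 1, 12 without Vehicle 3, 11 without Vehicle 2 and 12 without Vehicle 1). All adjusted p-values of partners are from edgeR's quasi-likelihood test with Benjamini-Hochberg adjustment over all tested genes. The lists were written with earlier results of these data known, so these p-values are given as a description and test no list.

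The complexes that hold class I enzymes showed small changes in both directions, with 4 genes called higher and 6 lower of 45 tested. In the list for NuRD, which couples Hdac1 and Hdac2 to nucleosome remodelling, 1 of 13 rose and 3 fell, and in the Sin3 list 1 of 14 rose and 3 fell. Each gene was counted in a single list, and Rbbp4 and Rbbp7 were counted under NuRD alone. Of the CoREST list, the complex that joins Hdac1 or Hdac2 to a histone demethylase, 2 of 10 rose and 0 fell. Phf21a, a CoREST subunit that reads unmethylated histone H3, had 43.1, 43.8 and 47.8 CPM with LPS, against 32.1, 31.1 and 32.5 CPM with Vehicle, and its groups did not overlap (log2 fold change 0.49 ± 0.10, adjusted p = 0.00899). That call held with any 1 library left out.

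The other class I partners were called with all 6 libraries and lost the call when some were left out. Hmg20b, of CoREST, rose by 0.51 ± 0.12 on the log2 scale (adjusted p = 0.0191, up to 0.0840 without LPS 1, Vehicle 2 or Vehicle 3). Chd5, a remodeller of the NuRD list, rose by 0.85 ± 0.21 (adjusted p = 0.0224, up to 0.0806 without LPS 2 or 1 of the Vehicle libraries). Mbd3 and Rbbp4, a scaffold and a histone-binding subunit of NuRD, fell by 0.37 and 0.35 on the log2 scale, with adjusted p up to 0.0941 and 0.133 without LPS 1, LPS 2 or 1 of the Vehicle libraries. Rbbp7, the paralog of Rbbp4, fell by 0.49 (adjusted p up to 0.105 without 1 of the LPS libraries, Vehicle 2 or Vehicle 3). Of the Sin3 genes, Sap18 fell by 0.33 (up to 0.124 without LPS 2 or 1 of the Vehicle libraries) and Sap30 by 0.42 (up to 0.141 without LPS 2, LPS 3 or 1 of the Vehicle libraries). Brms1l fell by 0.46 and lost its call with any 1 library left out (adjusted p up to 0.153) and with no filter on low counts, and Ing2, a reader of methylated histone H3, rose by 0.45 and lost its call without LPS 1, LPS 2 or 1 of the Vehicle libraries (up to 0.129) and when libraries were scaled by total counts alone.

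The corepressor genes that work with Hdac3 were not called, with 0 of 5 called by edgeR, DESeq2 or limma voom and 0 at an unadjusted p under 0.05. Ncor1 had 160, 151 and 229 CPM with LPS, against 175, 189 and 181 CPM with Vehicle. LPS 3 was the highest library and the groups overlapped (log2 fold change -0.01 ± 0.15). The sign for Ncor1 turned without LPS 1 (0.06), LPS 2 (0.10) or Vehicle 2 (0.01). Of the 3 MiDAC genes 0 were called by edgeR, DESeq2 or limma voom, and 1 had an unadjusted p under 0.05.

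Among the 4 MEF2 genes, whose proteins are the main DNA-bound partners of class IIa enzymes, 1 rose and 2 fell. Mef2a had 47.8, 54.4 and 65.5 CPM with LPS, against 81.0, 89.6 and 94.9 CPM with Vehicle. Its groups did not overlap, and it fell by 0.66 ± 0.13 on the log2 scale (adjusted p = 0.00772). Mef2c, a microglial MEF2 factor, had 17.5, 20.2 and 22.8 CPM with LPS, against 27.1, 35.0 and 27.1 CPM with Vehicle, and fell by 0.56 ± 0.16 (adjusted p = 0.0338). The Mef2c call was lost without LPS 1, LPS 2 or 1 of the Vehicle libraries (adjusted p up to 0.121). Mef2b, the least abundant in CPM, had 3.14, 4.23 and 2.85 CPM with LPS, against 1.22, 0.842 and 0.866 CPM with Vehicle, and rose by 1.78 ± 0.32 (adjusted p = 0.00501). Mef2d had overlapping groups at 158, 228 and 236 CPM with LPS and 183, 154 and 158 CPM with Vehicle (0.33 ± 0.16), and it was called when LPS 1 was left out (0.49).

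Of 13 tested kinases that can phosphorylate class IIa enzymes, 1 rose and 1 fell. Camk1, a calcium/calmodulin-dependent kinase, had 69.4, 59.3 and 62.1 CPM with LPS, against 144, 135 and 147 CPM with Vehicle, and fell by 1.16 ± 0.10 on the log2 scale (adjusted p = 0.00011). Sik3, a salt-inducible kinase, had 177, 215 and 232 CPM with LPS, against 135, 116 and 121 CPM with Vehicle, and rose by 0.75 ± 0.12 (adjusted p = 0.00268). Neither overlapped between groups, and both calls held with any 1 library left out. Of the 7 genes for 14-3-3 proteins, the carriers of phosphorylated class IIa enzymes, 0 were called by edgeR, DESeq2 or limma voom, and 0 had an unadjusted p under 0.05.

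Sirtuins, the NAD-dependent class III deacetylases, changed in both directions, with 3 of 7 higher and 1 lower. Sirt1, a nuclear sirtuin, had 16.2, 21.4 and 18.5 CPM with LPS, against 31.1, 36.0 and 34.7 CPM with Vehicle, and fell by 0.85 ± 0.14 on the log2 scale (adjusted p = 0.00305). Sirt6, which acts on chromatin, had 21.9, 21.4 and 23.8 CPM with LPS, against 11.6, 12.4 and 10.7 CPM with Vehicle, and rose by 0.95 ± 0.13 (adjusted p = 0.00141). Sirt2, which like Hdac6 deacetylates tubulin, had 97.5, 120 and 103 CPM with LPS, against 66.5, 61.6 and 58.4 CPM with Vehicle, and rose by 0.78 ± 0.11 (adjusted p = 0.0015). The groups of these 3 genes did not overlap and the calls held with any 1 library left out. The mitochondrial sirtuin gene Sirt4 rose by 0.84 ± 0.21 (adjusted p = 0.0237), a call lost without LPS 1, LPS 2, Vehicle 1 or Vehicle 2 (up to 0.0814).

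Of 12 histone acetyltransferase genes, whose products oppose deacetylases, 1 rose and 3 fell. Hat1, which acetylates newly made histones, had 148, 136 and 118 CPM with LPS, against 194, 187 and 180 CPM with Vehicle, without overlap, and fell by 0.48 ± 0.10 on the log2 scale (adjusted p = 0.00998, at most 0.0470 with 1 library left out). Kat2a and Kat2b, the related enzymes GCN5 and PCAF, both fell by 0.50 on the log2 scale. The Kat2a call was lost without LPS 1, LPS 2, Vehicle 1 or Vehicle 3 (adjusted p up to 0.101) and the Kat2b call without LPS 2 or 1 of the Vehicle libraries (up to 0.0793). Kat6b rose by 0.64 ± 0.19 (adjusted p = 0.0440) and was not called with any 1 library left out (up to 0.109), with upper quartile or total count scaling, with the stricter filter or with the older quasi-likelihood test. Ep300 (p300), a general coactivator, overlapped at 159, 147 and 202 CPM with LPS and 151, 146 and 156 CPM with Vehicle (0.16 ± 0.12).

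Of 10 tested repressors that recruit deacetylases, 1 was called. Bcl6, which binds NCoR and class IIa enzymes, had 10.9, 13.0 and 13.2 CPM with LPS, against 35.2, 32.4 and 42.0 CPM with Vehicle. All its LPS libraries lay below all its Vehicle libraries, and it fell by 1.56 ± 0.15 on the log2 scale (adjusted p = 0.000254), with the call kept when any 1 library was left out.

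**Figure D4:**
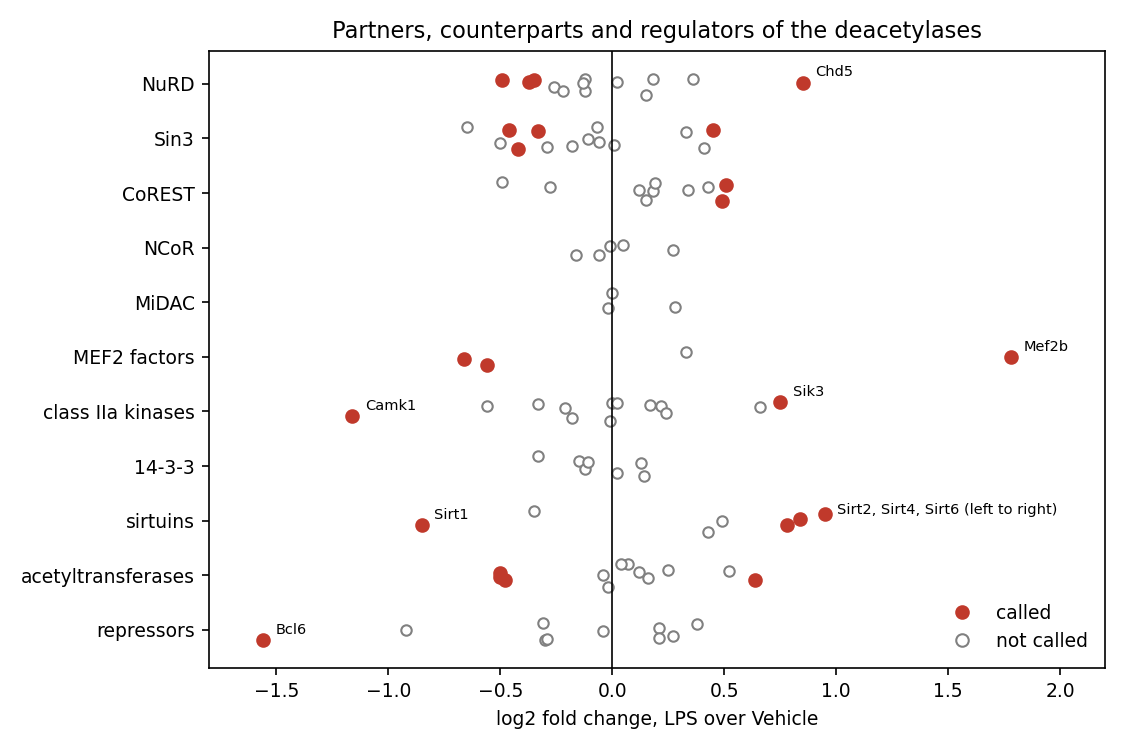
Fitted log2 fold change, LPS over Vehicle, of tested genes of the partner lists (1 point per gene, spread vertically for legibility, red where called), with called genes past 0.7 in size named. Bcl6 (-1.56) and Camk1 (-1.16) lie farthest to the left and Mef2b (1.78) farthest to the right, and the NCoR, MiDAC and 14-3-3 rows hold open points alone.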

How the data were processed

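The authors deposited 1 estimated count per gene and library (expected counts), all of them whole numbers. Per the labels' protocols, poly(A) RNA was made into libraries with a NEBNext Ultra kit and sequenced on an Illumina NovaSeq. Tools named in the submitters' processing notes, with no role or order, are HISAT2, StringTie 1.3.1, DESeq2 and Bowtie2 2.2.8. Their genome build is not given in the sources, nor is the annotation. Values may move reads between overlapping or near-identical genes. All 6 sample columns were matched by name and 0 were left over.

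Symbols and transcript lengths came from GENCODE M21 by Ensembl identifier (55141 of 55401 matched), near-identical copies from BLAST 2.17.0. edgeR 4.0.16 (R 4.3.3) fitted all genes passing filterByExpr (at least 10 counts, and 15 in total) with TMM scaling and a two-sided robust quasi-likelihood F-test, called at a Benjamini-Hochberg adjusted p under 0.05. The procedure was run on simulated data, and its outcome is not reported here. Unlike the deposited counts, the simulated counts had the same relative spread for all genes and no spacing. Alternatives were 3 other scalings, 2 other filters, DESeq2 1.42.0, limma voom 3.58.1, a replicate block, counts divided by their spacing, each library left out and, added after seeing the data, the older quasi-likelihood test. The members and lists were chosen with earlier results of these data known. All members were named, and from each list up to 4 called genes with the largest changes plus 7 genes whatever their result, but some of these are not reported here. The floor covers counting error only, because PCR copies of a molecule are counted as separate reads. Figures used matplotlib 3.10.9.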

Additional observations from a re-analysis of the deposited data

How the results depend on the processing

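Hdac2 and Hdac9 kept their call and direction under all 16 alternatives, and Hdac1 joined them under 7 (the size factors of DESeq2, upper quartile, total counts only, the stricter filter, DESeq2, limma voom and counts divided by their spacing). Leaving out 1 library gave 2344 to 4535 called genes (2344 without Vehicle 2) and 1053 to 2085 called lower (1053 without Vehicle 2, 1150 without Vehicle 1, 1153 without LPS 2), and 11 to 30 called partner genes. Log2 fold changes around 0 changed sign, with ranges of -0.07 to 0.03 for Hdac3, -0.22 to 0.15 for Hdac4 and -0.23 to 0.10 for Ncor1. With total counts only, the median of the deacetylases was -0.13 and 42.2% of called genes were higher, against 53.9% with TMM. The causes of these shifts were not tested. The replicate block gave 3817 called genes and changed no call of a deacetylase. Among partner genes it gave 26 calls against 25, with 2 lost (Sap18 and Ing2, adjusted p = 0.0533 and 0.0591 by edgeR) and 3 gained (Gse1, Sap130 and Zmym2, named after their values were seen). The deviations of same-numbered libraries correlated by 0.0734, 0.0453 and 0.0581, and each library correlated best with its own number. Libraries with different numbers correlated by -0.0623 to 0.0082. These small values do not settle whether the numbers mark pairs. The labels do not state pairs, and the main fit used no block. Hdac7 was not tested under the stricter filter or with counts divided by their spacing because its counts were too low. Hdac11 was too low for a fold change.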
